A study of Homo sapiens with 14 samples.

Results

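MicroRNAs in extracellular vesicles (EVs) from cells given basic FGF were compared with those from cells given no additive. The comparison used every library that the labels place in either group, which was 6 of the 14 libraries of the study, 3 of FGF and 3 of NT (no treatment). Cryopreserved pro-epicardial cells, made from the established human embryonic stem cell line hES-2, were plated for both groups in supplemented StemPro medium without SB-431542, which blocks TGF-β type I receptors. FGF cells received 10 ng/ml bFGF for 8 days, starting the day after plating, and NT cells received nothing else. From day 4 both groups had medium passed through a 100 kDa filter, and conditioned medium was taken on days 6 and 8, after 48 h each time. The other 8 libraries are 4 of cells kept with 6 µM SB-431542 (SB) and 4 of cells given 5 ng/ml TGF-β1 for 4 days (TGFb). They entered the fits and are used below only to place the FGF values. The labels call the NT source pro-epicardial and the FGF source stimulated epicardial, so the named stage and the additive cannot be told apart. All cells came from 1 line, and PEG precipitation collects other particles of the medium along with vesicles.

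The epicardium is the outer cell layer of the heart, and its cells can undergo epithelial-to-mesenchymal transition to give fibroblasts and mural cells. Basic FGF acts through receptor tyrosine kinases and the MAPK cascade, and FGF and TGF-β signals are both known for driving that transition. MicroRNAs (miRNAs) are short RNAs that guide Argonaute proteins to messenger RNAs, mainly by pairing through the seed near the 5′ end. Cells export part of their miRNAs in vesicles and on protein particles.

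The mature sequences of 14 miRNAs described below are shown so that shared seeds can be seen. They were taken from RefSeq (GRCh38.p14), which matched 43 of the 47 tested miRNAs (all but miR-483-3p, miR-483-5p, miR-30d-5p and miR-320a-3p), and are written 5′ to 3′ with the seed (bases 2 to 8) in capitals. The first pair has the same seed and the same first 13 bases.
miR-125a-5p: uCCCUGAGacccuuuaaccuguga
miR-125b-5p: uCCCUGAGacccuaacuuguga
miR-99b-5p: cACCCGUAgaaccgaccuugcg
let-7e-5p: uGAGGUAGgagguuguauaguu
let-7b-5p: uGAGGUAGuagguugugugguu
miR-21-5p: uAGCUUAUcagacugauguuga
miR-143-3p: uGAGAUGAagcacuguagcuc
miR-199a-3p: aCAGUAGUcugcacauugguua
miR-126-3p: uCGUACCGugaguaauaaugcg
miR-30a-5p: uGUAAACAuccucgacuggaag
miR-34a-5p: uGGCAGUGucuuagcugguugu
miR-16-5p: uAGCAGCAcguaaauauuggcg
miR-92a-3p: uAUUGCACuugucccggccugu
miR-744-5p: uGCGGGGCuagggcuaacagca
The let-7 pair differs at 3 positions counted from the 5′ end, U9G, G17A and G19A (let-7b-5p first). How the authors' counting divided reads among such near-identical miRNAs is not given in the sources used here, so their separate values are uncertain.

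Depth was low and very uneven. The FGF libraries held 115, 3241 and 868 counts (replicates 2, 3 and 4), and the NT libraries 14862, 9462 and 1010 (replicates 1, 3 and 4). Values below follow this order. A single count was 0.870% of FGF replicate 2 and 0.00673% of NT replicate 1, so levels are given as shares of a library's counts. A count of 0 allows up to 3 counts, which is 2.61% of FGF replicate 2 and 0.0202% of NT replicate 1. Mean totals were 1408 ± 1631 (SD, n = 3) in FGF and 8445 ± 6982 (SD, n = 3) in NT, with an exact two-sided permutation p of 0.2. The smallest p that 3 against 3 can give is 0.1. A share says how a miRNA stood among the others, and fewer vesicles of a kind and less miRNA per vesicle cannot be told apart.

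In shares of counts, the FGF libraries carried less miR-483-3p and more miR-21-5p and miR-143-3p than the NT libraries. miR-483-3p fell by 2.22 on the log2 scale (SE 0.57), and it was the only miRNA past an adjusted p of 0.05 among 47 tested. That call depended on the setting. It held in 4 of 13 other settings and in 2 of 6 fits with 1 library left out. With only the 6 FGF and NT libraries it was lost (edgeR adjusted p = 0.312). miR-21-5p and miR-143-3p stood higher in every FGF library than in any of the 11 other libraries of the study, but neither passed the threshold in the fit without a replicate block. NT replicate 4, the shallowest NT library, stood nearer to FGF than the other 2 for all 3 miRNAs. miR-125a-5p had a mean share of 4.75% ± 1.26 in FGF and 11.2% ± 6.05 in NT (SD, n = 3 each) and missed the threshold as well. The call rate was 1 of 47 (2.13%) at the adjusted threshold and 8 of 47 (17%) at an unadjusted p under 0.05, with 4 of those higher and 4 lower in FGF (8.51% each).

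miR-483 is made from an intron of IGF2, the gene of an insulin-like growth factor (chr11:2134134-2134209, minus strand, GRCh38). miR-483-3p held 5.22%, 1.60% and 4.03% of the FGF libraries and 10.7%, 15.5% and 6.44% of the NT libraries. All 3 FGF libraries lay below all 3 NT libraries, and the closest values were 5.22% and 6.44%. The 95% Wilson intervals of those 2 libraries overlapped, at 2.41% to 10.9% on 6 counts and 5.08% to 8.12% on 65 counts. Intervals and limits here cover counting error only. By edgeR's quasi-likelihood test with TMM scaling the fall was 4.64-fold, with a Benjamini-Hochberg adjusted p of 0.0311. The TMM factors were 1.49, 1.13 and 1.24 in FGF and 0.744, 0.827 and 1.17 in NT. With library size in place of TMM the log2 difference was smaller, at −1.61 (SE 0.46). With TMM and the replicate number as a block it was −1.99 (SE 0.52, edgeR adjusted p = 0.0287). The call was lost on leaving out FGF replicate 2 (edgeR adjusted p = 0.149), FGF replicate 3 (0.103), NT replicate 1 (0.164) or NT replicate 3 (0.0976), while the fold change stayed between −3.05 and −1.61 in all settings run. It held without NT replicate 4, at −2.54 (edgeR adjusted p = 0.00457), and without FGF replicate 4, at −3.05 (0.0442). Of 13 other settings it was called in 4. It was lost with only the 6 FGF and NT libraries (edgeR adjusted p = 0.312). It was lost too with RLE factors (edgeR adjusted p = 0.0870), library size in place of TMM (0.112), the log10 library total as a term (0.223), other filters on low counts (0.0680 and 0.0780), and only replicates 3 and 4 (0.520).

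The other arm of the same hairpin, miR-483-5p, had the highest mean share in both groups. It took 7.83%, 25.1% and 9.33% of the FGF libraries and 28.7%, 26.9% and 15.4% of the NT libraries. FGF replicate 3 lay within the NT range and the other 2 FGF libraries below it. The log2 difference was −1.16 (SE 0.69, edgeR adjusted p = 0.320), and −2.73 without FGF replicate 3 (edgeR adjusted p = 0.145). The 5p to 3p ratio, as log2 with 0.5 added to each count, was 0.55, 3.95 and 1.20 in FGF and 1.42, 0.80 and 1.26 in NT. FGF replicate 3 stood alone, with 812 counts of the 5p arm against 52 of the 3p arm. The exact permutation p of the arm difference was 0.9 (n = 3 each), and the difference turned from 0.74 to −0.29 without FGF replicate 3. Both arms together made up 13.0%, 26.7% and 13.4% of FGF and 39.5%, 42.3% and 21.9% of NT.

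**Figure D1:**
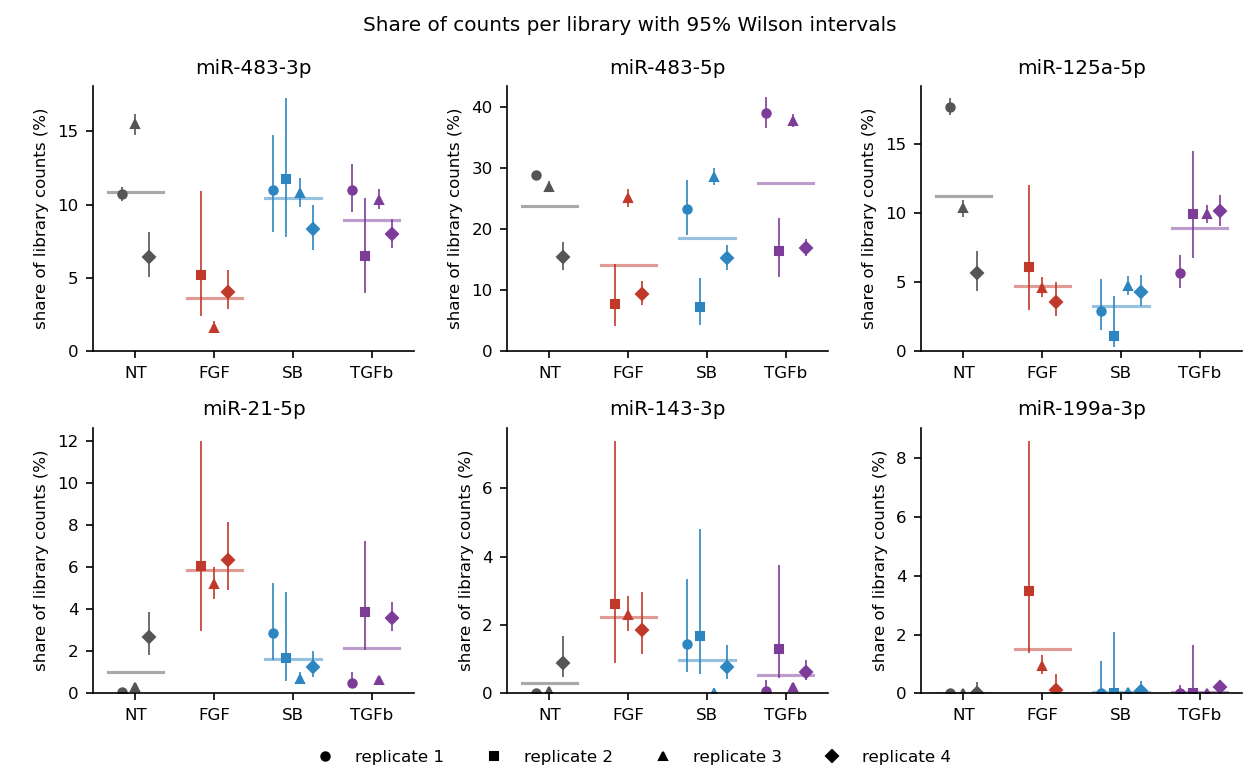
Share of library counts (percent) of 6 miRNAs in each library of the NT, FGF, SB and TGFb groups, with marker shape for the replicate number, 95% Wilson intervals as bars and the group mean as a horizontal line. The FGF libraries sit below all others for miR-483-3p (1.60% to 5.22%) and above all others for miR-21-5p (5.21% to 6.34%) and miR-143-3p (1.84% to 2.61%).

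miR-125a-5p is encoded with miR-99b and let-7e in 1 cluster in an intron of SPACA6 (MIR125A at chr19:51693254-51693339, plus strand, GRCh38). It held 6.09%, 4.60% and 3.57% of the FGF libraries and 17.6%, 10.3% and 5.64% of the NT libraries. FGF replicate 2, with 7 counts, overlapped NT replicate 4. The log2 difference was −1.83 (SE 0.58, edgeR adjusted p = 0.0946). It passed without NT replicate 4, at −2.20 (edgeR adjusted p = 0.00850), and with both miR-483 arms taken out of the table, at −2.66 (edgeR adjusted p = 0.0260). The setting without the miR-483 arms was added after seeing the data and tested 39 miRNAs. miR-125a-5p was called in 1 of 14 other settings and in 1 of 6 fits with 1 library left out. With the log10 library total as a term the log2 difference was −0.98 (edgeR adjusted p = 0.503).

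The cluster's other members did not share this size of difference in their point values. miR-99b-5p held 1.74%, 3.52% and 3.92% in FGF and 4.78%, 3.53% and 1.29% in NT, a log2 difference of −0.49 (edgeR adjusted p = 0.755). let-7e-5p held 1.74%, 2.01% and 3.11% against 1.14%, 4.25% and 2.67%, a log2 difference of −0.58 (edgeR adjusted p = 0.710). The groups overlapped for both. Differences between cluster members were not tested. miR-125b-5p, which has the seed of miR-125a-5p but is made at other loci, held 5.22%, 1.91% and 2.42% in FGF and 1.96%, 1.60% and 0.990% in NT. Its log2 difference was 0.36 (edgeR adjusted p = 0.805). The list of the chromosome 19 cluster, with 5 of 6 arms counted, summed to 9.57%, 10.5% and 10.8% in FGF and 23.9%, 18.3% and 9.70% in NT.

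miR-21-5p is induced by growth factor and AP-1 signalling in many cells and lies within an exon of VMP1 (chr17:59841266-59841337, plus strand, GRCh38). It held 6.09%, 5.21% and 6.34% of the FGF libraries and 0.0875%, 0.296% and 2.67% of the NT libraries. The FGF values were close to each other, whereas NT replicate 4 held far more than the other 2 NT libraries. Its 95% Wilson interval of 1.84% to 3.86% (27 counts) did not reach that of FGF replicate 4, 4.90% to 8.16% (55 counts), but overlapped that of FGF replicate 2, 2.98% to 12.0% (7 counts). The log2 difference was 2.42 (SE 0.86, edgeR adjusted p = 0.148). It was past the threshold with the replicate block, at 2.88 (SE 0.80, edgeR adjusted p = 0.0414; 2 of 47 called, 4.26%, and 12 at an unadjusted p under 0.05, 25.5%), and without NT replicate 4, at 4.40 (edgeR adjusted p = 0.000244). Across all settings it ran from 1.79 to 4.40. The highest share in a library outside FGF was 3.90%, on 9 counts of TGFb replicate 2.

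Other miRNAs linked to MAPK and AP-1 signalling were sparse. Of the 8 in that list, 7 were counted in the 6 libraries and 2 passed the filter on low counts, miR-21-5p and miR-221-3p. miR-221-3p, a regulator of cell-cycle inhibitors, had a log2 difference of −0.34 (edgeR adjusted p = 0.892). miR-222-3p, its cluster partner, had no count in FGF and 7 in NT. Those 7 are 0.0276% of the pooled NT counts, below the 0.0710% that a count of 0 allows over pooled FGF counts. miR-155-5p had 8 counts in FGF and 17 in NT, with mean shares of 0.223% and 0.0445%, and the groups overlapped. The list summed to 6.09%, 6.08% and 7.60% in FGF and 0.747%, 0.719% and 3.66% in NT, and in FGF most of that was miR-21-5p. The exact permutation p was 0.1 (n = 3 each), the smallest possible, and 0.44 after adjustment over 22 classes of miRNA compared in this way.

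miR-143-3p is a miRNA of smooth muscle and stromal cells, made from an exon of the noncoding RNA CARMN (chr5:149428918-149429023, plus strand, GRCh38). It held 2.61%, 2.28% and 1.84% of the FGF libraries, on 3, 74 and 16 counts. NT replicate 1 had no count, and NT replicates 3 and 4 held 0.0634% and 0.891%, on 6 and 9 counts. The groups did not overlap, and NT replicate 4 again stood nearest to FGF. The log2 difference was 2.94 (SE 1.32, edgeR adjusted p = 0.261), and 3.52 with the replicate block (SE 1.33, edgeR adjusted p = 0.116). Without NT replicate 4 it was 5.55 (edgeR adjusted p = 0.00457).

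miR-199a-3p, another miRNA of mesenchymal cells, is made from 2 loci, one of them in an exon of DNM3OS on chromosome 1. It did not pass the filter. It had 4, 30 and 1 counts in FGF (3.48%, 0.926% and 0.115%) and 0, 1 and 0 in NT. Over pooled counts that is 35 of 4224 against 1 of 25334, a ratio of 210 with a 95% counting interval from 35.3 to 8525. Those intervals treat the counts of a group as 1 library and leave out the spread between libraries. In the fit with no filter on low counts the log2 difference was 6.14 (SE 1.54, edgeR adjusted p = 0.0288), and it was the only call among 447 miRNAs (0.224%), of which 33 had an unadjusted p under 0.05 (7.38%). In fits with 1 library left out it passed the filter only through the FGF libraries in which it was high, so its values there are no support. One TGFb library reached 0.217%, above FGF replicate 4.

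miR-143-3p and miR-199a-3p are also the main members of a list of 8 mural and stromal miRNAs, of which 5 were counted and 1 passed the filter. This list summed to 6.96%, 3.21% and 2.07% in FGF and to 0%, 0.085% and 0.891% in NT, and reached at most 1.68% in SB and 1.30% in TGFb. The 3 members at 0 were miR-145-3p and both arms of miR-214, and miR-145-5p, from the same transcript as miR-143, had 1 count in FGF and 0 in NT. A list of 15 miRNAs tied to TGF-β and the mesenchymal state summed to 13.9%, 10.4% and 12.7% in FGF and 1.49%, 2.04% and 7.62% in NT. In FGF most of that was miR-21-5p and miR-143-3p. The list had 13 members counted and 3 tested, of which miR-21-5p and miR-143-3p had positive log2 differences and miR-181a-5p a negative one. For both lists the exact permutation p was 0.1 (n = 3 each) and 0.44 after adjustment over the 22 classes. Both lists rest on miRNAs described above and were chosen with earlier results of these data known, so their sums are no separate support. miR-181a-5p, at −0.63 (edgeR adjusted p = 0.761), had mean shares of 0.915% in FGF and 1.43% in NT, and the groups overlapped. It had 48 counts in FGF and 242 in NT, more in NT than miR-21-5p with 68 or miR-143-3p with 15. Of the members that did not pass the filter, miR-181b-5p had 17 counts in FGF and 88 in NT, and miR-23a-3p 17 and 27. As mean shares these were 0.539% and 0.334% for miR-181b-5p and 0.428% and 0.164% for miR-23a-3p, and the groups overlapped for both. miR-24-3p, with 13 counts in FGF and 29 in NT, likewise had mean shares of 0.302% and 0.143%. miR-29a-3p went the other way, with 4 counts in FGF and 17 in NT. Its mean shares were 0.0974% and 0.265%, and the groups overlapped. miR-10b-5p and miR-29c-3p had 0 counts in FGF, and 2 and 1 in NT.

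**Figure D2:**
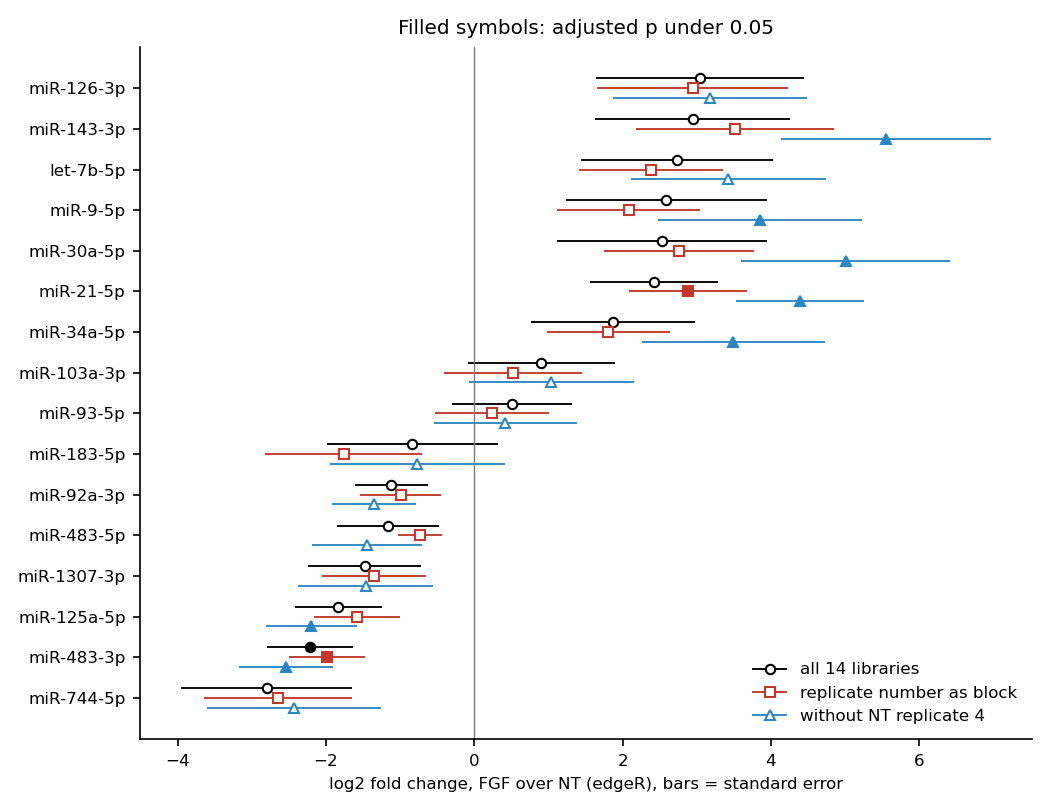
Log2 difference, FGF minus NT, of 16 miRNAs in edgeR's fit of all 14 libraries, in the fit with the replicate number as a block and in the fit without NT replicate 4. Bars are standard errors and filled symbols have an adjusted p under 0.05. miR-483-3p is filled in all 3 fits, and miR-21-5p in 2 of them. Other settings are not drawn. Beside the main fit, miR-483-3p was called in 4 of 13 settings and in 2 of 6 fits with 1 library left out.

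Of the single libraries, leaving out NT replicate 4 moved the count of calls most. It gave 8 calls among 53 tested miRNAs (15.1%), 6 higher and 2 lower in FGF, and 16 with an unadjusted p under 0.05 (30.2%). Of these, miR-483-3p, miR-125a-5p, miR-21-5p, miR-143-3p and miR-199a-3p are described above, the last at 6.48 (edgeR adjusted p = 0.0475) with the limit given there. miR-30a-5p was at 5.01 (edgeR adjusted p = 0.00850), against 2.53 (0.320) with all libraries. miR-34a-5p was at 3.49 (edgeR adjusted p = 0.0475), against 1.87 (0.320). miR-9-5p was at 3.85 (edgeR adjusted p = 0.0475), against 2.59 (0.288) with all libraries and 0.36 (0.832) with the library total as a term. miR-34a-5p, a p53 target, held 0%, 1.36% and 2.65% in FGF and 0.0336%, 0.169% and 1.09% in NT. miR-30a-5p held 0.870%, 0.432% and 2.19% in FGF and 0.0404%, 0% and 0.693% in NT. miR-9-5p, a neural miRNA, held 3.48%, 0.278% and 0.922% against 0.0404%, 0.0528% and 0.495%. In each of these NT replicate 4 was the highest NT library and overlapped the FGF range. Without FGF replicate 4 there were 3 calls, among them miR-183-5p at −5.23 (edgeR adjusted p = 0.0442). Its FGF shares were 0%, 0.0309% and 1.73%, and NT replicates held 0.444%, 1.27% and 1.19%.

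The shares of the groups did not overlap for 8 of the 47 tested miRNAs (17%), 4 higher and 4 lower in FGF (8.51% each). On the lower side, besides miR-483-3p, were miR-744-5p, miR-92a-3p and miR-1307-3p. miR-744-5p, made in an intron of the MAPK pathway kinase gene MAP2K4, had 0, 7 and 0 counts in FGF and 58, 64 and 13 in NT. Its log2 difference was −2.80 (SE 1.16, edgeR adjusted p = 0.261), and the limit of 2.61% for a count of 0 in FGF replicate 2 is above all its NT shares. miR-92a-3p, made from the proliferation-linked MIR17HG cluster and a paralog, held 1.74%, 2.93% and 2.76% in FGF and 5.54%, 3.74% and 2.97% in NT (log2 difference −1.12, SE 0.50, edgeR adjusted p = 0.261). On the higher side, besides miR-21-5p and miR-143-3p, were miR-103a-3p at 0.91 (edgeR adjusted p = 0.755) and miR-93-5p at 0.51 (edgeR adjusted p = 0.805). The difference of miR-93-5p turned negative in 4 of the settings run, among them the one without a filter.

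miR-126-3p and let-7b-5p completed the 4 miRNAs higher at an unadjusted p under 0.05. miR-126-3p, an endothelial miRNA from an intron of EGFL7, had 0, 22 and 9 counts in FGF and 4, 8 and 1 in NT. Its log2 difference was 3.04 (SE 1.40, edgeR adjusted p = 0.261), and it reached 3.91% in 1 SB library. let-7b-5p, of the let-7 family that marks differentiated cells, held 3.48%, 1.20% and 0.230% in FGF and 0.0538%, 0.0951% and 0.396% in NT. Its log2 difference of 2.74 (SE 1.30, edgeR adjusted p = 0.263) was 1.22 with the library total as a term. The whole let-7 family of 9 summed to 9.57%, 4.07% and 4.49% in FGF and 1.68%, 5.26% and 4.16% in NT, which overlap.

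Because near-identical miRNAs can be miscounted, counts were also summed over miRNAs with the same seed. Of 42 such families 1 was called (2.38%), miR-483-3p, which enters alone, at −2.38 (edgeR adjusted p = 0.0390), and 8 had an unadjusted p under 0.05 (19%). With the replicate block edgeR called 0 families, and 12 had an unadjusted p under 0.05 (28.6%). The family of miR-125a-5p and miR-125b-5p had a log2 difference of −1.52 (SE 0.62, edgeR adjusted p = 0.172), with shares of 11.3%, 6.51% and 5.99% in FGF and 19.6%, 11.9% and 6.63% in NT. The family with seed AUUGCAC, in which miR-92a-3p is the main member, held 2.61%, 3.21% and 3.34% in FGF and 6.12%, 4.31% and 4.16% in NT without overlap (log2 difference −1.32, SE 0.54, edgeR adjusted p = 0.172). Of the miR-30 family, miR-30a-5p, miR-30c-5p and miR-30e-5p were summed under seed GUAAACA, at 2.25 (SE 1.10, edgeR adjusted p = 0.212). miR-30d-5p had no matched sequence and entered alone, at −1.20 (edgeR adjusted p = 0.385). The listed miR-30 family of 5 summed to 0.870%, 2.07% and 3.69% in FGF and 1.90%, 0.888% and 1.29% in NT, which overlap. Without NT replicate 4, 7 families were called, among them CCCUGAG at −1.96 (edgeR adjusted p = 0.0217), AUUGCAC at −1.62 (0.0364) and GUAAACA, which lacks miR-30d-5p here, at 3.41 (0.0411).

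**Figure D3:**
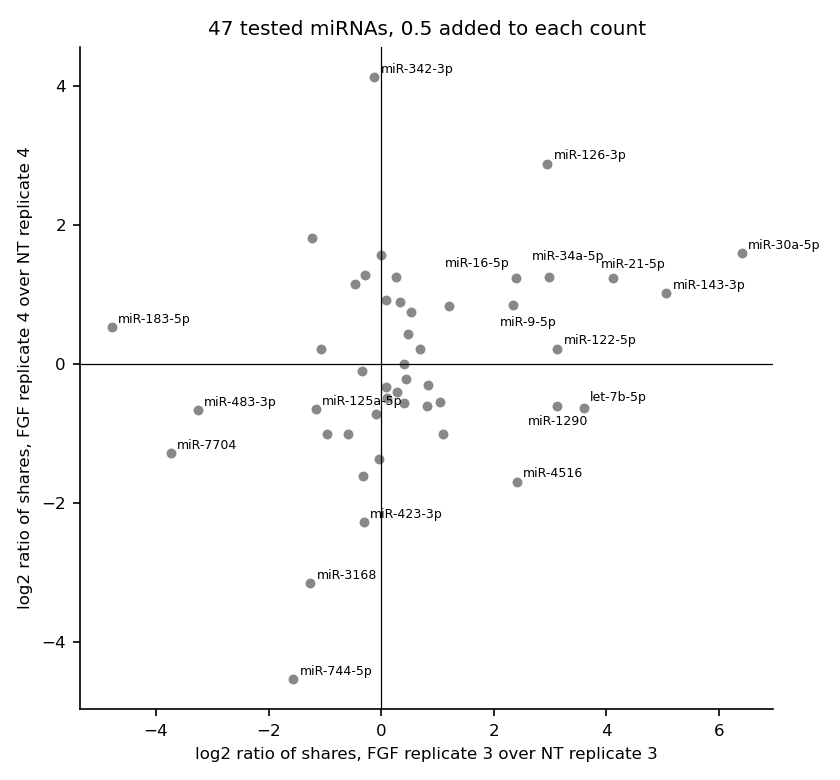
Log2 ratio of FGF to NT share for each of the 47 tested miRNAs in the replicates numbered 3 (horizontal axis) and 4 (vertical axis), with 0.5 added to each count. Of the 47 miRNAs, 15 lie above 0 on both axes, 12 below 0 on both and 20 have opposite signs.

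Replicate numbers 3 and 4 occur in both groups, and the pairs gave different sizes. miR-21-5p was 17.6-fold higher in FGF replicate 3 than in NT replicate 3 (95% counting interval 11.8 to 27.3) and 2.37-fold higher in replicate 4 (1.47 to 3.91). miR-143-3p was 36.0-fold higher in the third replicate (15.8 to 101) and 2.07-fold in the fourth (0.861 to 5.31), where the interval includes equal shares. miR-483-3p was 9.63-fold lower (7.30 to 13.0) and 1.60-fold lower (1.04 to 2.48). The groups did not overlap for any of these 3 miRNAs, so their direction in both pairs was fixed in advance. The difference of each was smaller in number 4. Across the 47 miRNAs the log2 ratios of the 2 pairs had a Pearson r of 0.316 and a Spearman rho of 0.321, across genes that share their libraries and are not independent replicates. The log2 ratio was past 1, up or down, in both pairs for 12 miRNAs, of which 6 were higher in both (miR-21-5p, miR-143-3p, miR-126-3p, miR-30a-5p, miR-16-5p and miR-34a-5p) and 3 lower in both (miR-744-5p, miR-7704 and miR-3168). With all libraries miR-7704 and miR-3168 had positive log2 differences, 0.92 and 0.89 (edgeR adjusted p = 0.805 and 0.880). FGF replicate 2 held 6.96% and 5.22% of them, and FGF replicate 3 had no count of either. miR-16-5p, a cell-cycle regulator chosen after its values were seen, had 0%, 2.62% and 4.26% in FGF and 0.141%, 0.497% and 1.78% in NT, with a log2 difference of 1.58 (edgeR adjusted p = 0.320).

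Set against the mean of SB and TGFb, the FGF libraries again differed in miR-483-3p, at −1.94 (edgeR adjusted p = 0.0401), 1 of 47 (2.13%). This contrast leaves NT out, but it came from the fit of all 14 libraries. The NT libraries therefore still entered the filter, the scaling and the estimate of spread. The call was lost with RLE factors, with library size and on leaving out any FGF library. With the replicate block miR-483-5p was called too, at −0.89 (edgeR adjusted p = 0.0298). The shares of miR-483-3p ran from 8.32% to 11.7% in SB, and the lowest in TGFb was 6.49%. Above all 11 other libraries in share stood 2 of 47 miRNAs (4.26%), miR-21-5p and miR-143-3p, and 1 stood below all of them (2.13%), miR-483-3p. This comparison and the one with NT share the FGF libraries.

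**Figure D4:**
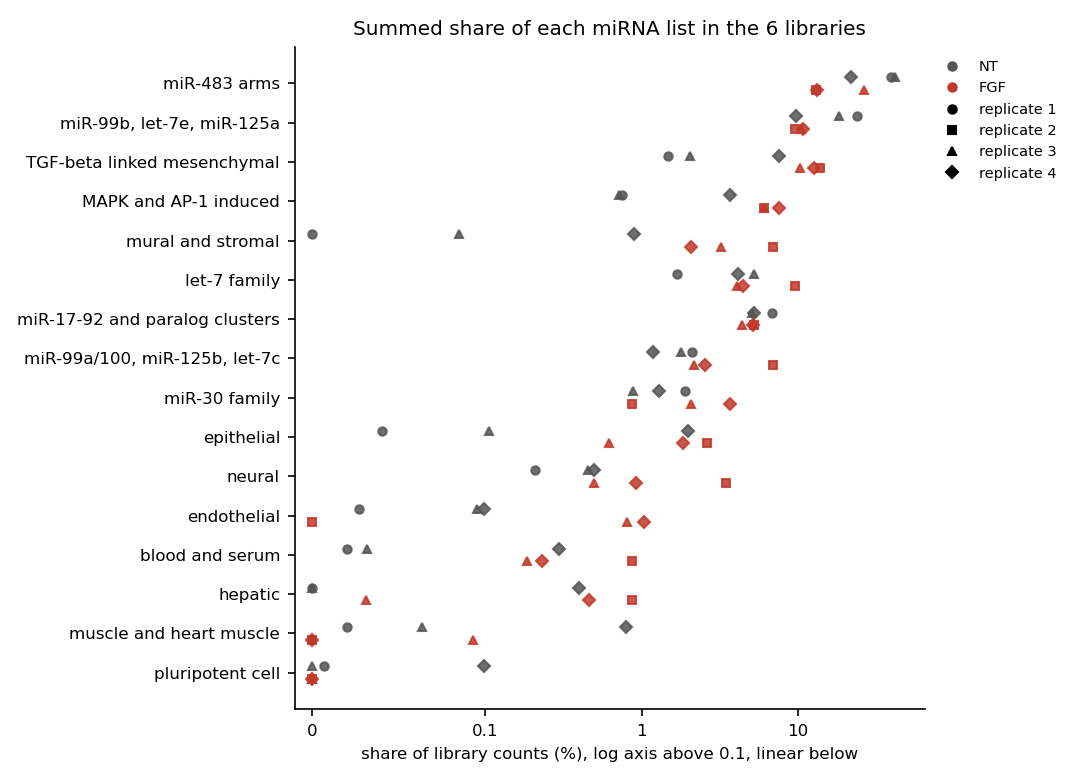
Summed share of counts (percent, axis linear near 0 and logarithmic above) of 16 lists of miRNAs in the 3 FGF and 3 NT libraries. The mural and stromal list lies between 2.07% and 6.96% in FGF and at most 0.891% in NT, and the IGF2-hosted list between 13.0% and 26.7% in FGF and between 21.9% and 42.3% in NT.

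No epicardial marker can be read from a miRNA table, so lists of miRNAs of other cell types were summed. Of 8 pluripotent-cell miRNAs, 7 had no count in the 6 libraries, and the list was 0% in all FGF libraries and at most 0.0990% in NT. Blood and serum miRNAs, with 3 of 7 at 0, took 0.870%, 0.185% and 0.230% in FGF and 0.0202%, 0.0317% and 0.297% in NT. Muscle miRNAs, with 5 of 7 at 0, were at most 0.0926% in FGF and 0.792% in NT. Both endothelial miRNAs were counted, at 0%, 0.802% and 1.04% in FGF and 0.0269%, 0.0951% and 0.0990% in NT. Of 4 neural miRNAs 2 were at 0, and the list was 3.48%, 0.494% and 0.922% in FGF and 0.209%, 0.454% and 0.495% in NT. The 2 hepatic miRNAs, 1 of them at 0, held at most 0.870% in FGF and 0.396% in NT. All 7 epithelial miRNAs were counted, at 2.61%, 0.617% and 1.84% in FGF and 0.0404%, 0.106% and 1.98% in NT. The blood, neural and hepatic shares in FGF rest on few counts, and their part in the results above was not tested.

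Detection followed depth. Of 2632 miRNAs in the table, 375 were counted in the 6 libraries, 177 in both groups, 176 only in NT and 22 only in FGF. The 22 held 33 counts, and 15 of them had a single count. At an equal depth of 115 counts the FGF libraries would hold 40.0, 43.9 and 53.3 miRNAs and the NT libraries 31.9, 34.6 and 52.4 (exact permutation p = 0.5, n = 3 each). The 10 most abundant miRNAs of each library took 56.5%, 56.4% and 42.9% of its counts in FGF and 75.8%, 71.9% and 46.9% in NT (exact permutation p = 0.3, n = 3 each). miR-146b-5p, an inflammation-related miRNA, had 31 counts in NT, in 2 of its libraries, and none in FGF. miR-92b-5p had 28, in all 3 NT libraries, and miR-4492 had 21, in 2 of them, and neither was counted in FGF. Their 0.122%, 0.111% and 0.0829% of the pooled NT counts are above the 0.0710% that a count of 0 allows over pooled FGF counts, and no other miRNA counted only in NT was above it.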

How the data were processed

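Small RNA of PEG-precipitated EVs was sequenced with the QIAseq miRNA kit, per the labels' protocols, and the build GRCh38 is given per the submitters' processing notes. The aligner, the miRNA annotation and the use of molecular identifiers are not given in the sources used here. The authors' deposited raw table gives counts per miRNA with no normalization. A second deposited table holds the authors' adjusted values, treated as a score since how they were adjusted is not stated; it altered 536 of 978 nonzero values of the 6 libraries, and 2 lines that name no miRNA were left out, as were the authors' CPM columns.

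All 14 libraries entered 1 edgeR 4.0.16 quasi-likelihood fit (R 4.3.3; robust, TMM, filterByExpr by group at 10 counts, totals recomputed over kept miRNAs), with Benjamini-Hochberg adjustment over the 47 tested and a threshold of 0.05. Standard errors are the absolute log2 difference over the square root of F. Exact permutation tests were two-sided (scipy 1.17.1). Scripts were tested on simulated data. Loci are from GENCODE 29.

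Named were miRNAs past the threshold in the main fit, the block fit or another planned setting, with an unadjusted p under 0.05 or without overlap, the 10 of highest mean share, list members and other arms of such hairpins. The members, lists and rules were chosen with earlier results of these data known. The labels do not say that replicates are separate cultures, so p-values measure only the spread between these samples. Replicate numbers come from the labels. Libraries of the same number had correlated deviations in 15 of 18 pairs (above 0.1), but at 0.00574 for FGF and NT replicate 4, so the numbers were not treated as pairs and the block is an alternative. Pairs with different numbers were not summarized, so whether the correlation goes with the number was not tested. Other settings were RLE factors, library size only, DESeq2 1.42.0, other filters, fewer libraries, the adjusted table (limma 3.58.1), the library total as a term and each library left out; 3 were added after seeing the data (full library totals, no miR-483 arms, no libraries numbered 2).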

Additional observations from a re-analysis of the deposited data

How the results depend on the processing

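The count of miRNAs called between FGF and NT (1) was 0 with RLE factors, with library size only, with a mean of at least 10 counts, with only the 6 libraries, with only replicates 3 and 4 (with and without the replicate block), with the log10 library total and, added after seeing the data, without libraries numbered 2. It was 2 with the replicate block and 3 in the adjusted table (limma; miR-483-5p, miR-483-3p and miR-21-5p). Leaving out 1 library gave 0 to 8, with 8 without NT replicate 4, 3 without FGF replicate 4 and 0 without any of the others. It stayed at 1 with DESeq2, with full totals, without a filter (miR-199a-3p, not miR-483-3p) and without the miR-483 arms (miR-125a-5p). Seed families called (1) were 0 with RLE factors, library size or the replicate block, and 0 to 7 on leaving out 1 library. miRNAs called against the mean of SB and TGFb (1) were 0 with RLE factors or library size, 2 with the replicate block, and 0 without each FGF library. The cause was not tested.

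Of 16 miRNAs followed, 15 kept their sign in every setting that could be fitted. miR-93-5p (0.51) went to −0.026 without a filter, −0.18 without the miR-483 arms, −0.14 without libraries numbered 2 and −0.040 without FGF replicate 4, with values up to 0.42 on leaving out others. The miR-483 arm difference ran from −0.29 to 1.42 on leaving out 1 library. The median log2 difference of the 47 was −0.00 with TMM, 0.15 with RLE and 0.41 with library size, where 66.0% were positive against 48.9%. Depth limits the rest, since 1 count is 0.870% of the shallowest library.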

Other observations

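In 5 hairpins both arms had at least 20 counts over the 6 libraries. For miR-423 the log2 ratio of 5p to 3p counts, with 0.5 added to each, was 2.81, 2.39 and 3.54 in FGF and 1.58, 1.68 and 1.27 in NT, with no overlap (2.92 ± 0.58 against 1.51 ± 0.21, SD, n = 3 each, exact permutation p = 0.1). That p is the smallest possible. The 3p arm had 0, 19 and 1 counts in the FGF libraries, against 3, 102 and 17 of the 5p arm, so the value of replicate 2 depends on the 0.5 added. In TGFb the ratio reached 2.81, above FGF replicate 3.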
